A study of Danio rerio with 96 samples.

Results

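The features described here were graded widely between single zebrafish embryos: 204 of the 3183 features of the panel, or 6.41%. They were chosen on the spread of their log2 CPM (counts scaled to a library total of 1000000) over the 24 samples of 1 embryo, with the mean of each set of 4 in an extraction batch (samples 1 to 4 and samples 5 to 8) taken out. A member had a mean count over all 96 samples of at least 50 and below 5000, an SD above 1.1 on the log2 scale, and no empty step of 2 or more on the log2 scale that split the embryos with at least 3 on each side. The last condition leaves out features with a wide empty step between embryos. It does not exclude classes of embryos parted by a smaller step, and 83 members had an empty step of at least 1 on the log2 scale. The rows of the deposited table carry no gene or probe name, so each feature goes by its row number, counted from 1, and no gene role can be given.

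The study compared numbers of zebrafish embryos per RNA sample. All samples were whole embryos at 120 hours post fertilization after 5 days in 0.1% dimethyl sulfoxide (DMSO), a solvent used to carry test chemicals. No sample had a further agent, and neither strain nor genotype is named. The 24 samples of each pool size (1, 5, 10 or 20 embryos, called pool1, pool5, pool10 and pool20) fell into 3 extraction batches of 8. RNA was measured by TempO-Seq, which ligates probe pairs on an RNA target and counts the products by sequencing, so a feature reports the target of its probes.

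Dates differed between groups. In December, pool5 (3 batches) and the first 2 batches of pool1 shared an exposure begun on the 12th and an extraction on the 17th. The last batch of pool10 and the last of pool1 shared an exposure begun on 13 December, with extraction on the 18th. In November, the other 2 batches of pool10 had an exposure begun on the 2nd and extractions on the 23rd and 24th. For pool20, the exposure began on 4 November for each batch, and extraction followed on 23 November, 24 November or 15 December.

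Library totals lay between 3336312 and 6441627 counts. A count of 0 allows a level of up to 3 counts, or 0.899 CPM at the lowest total and 0.466 CPM at the highest. In pool1 and pool5, samples 5 to 8 of batch 1 stood apart from the earlier samples of that batch. Over features in the rule's range of counts, the median absolute log2 difference between these parts was 0.648 in pool1 and 0.528 in pool5. It was at most 0.277 and 0.164 in their other batches. In pool10 and pool20 it was 0.174 and 0.108 in batch 1, below the 0.197 and 0.131 of batch 2. Batch 3 had 0.104 and 0.109. Sample 6 of pool5 batch 1 and sample 8 of pool1 batch 2 also stood apart from the rest of their batches. Counts without samples 5 to 8 of the batches numbered 1, or without a sample that stood apart, are given beside some of the results. Whether samples shared a dish or parents is not stated in the labels. The p-values therefore measure the spread between samples, part of which may be technical.

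Embryos of 1 zebrafish clutch differ in the alleles they inherit and in the pace at which they develop. RNA from a pool is a mixture, so the level of a transcript in a pool is the mean over its embryos, weighted by the RNA that each gives. A mean over more embryos varies less between samples, while a difference shared by all embryos of a dish or an extraction is left in place.

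The values that chose the members are given as a description. Their SD over single embryos ran from 1.103 to 2.55 on the log2 scale with a median of 1.38, and the largest step between neighbouring embryos ran from 0.238 to 1.98 with a median of 0.882. Most members were scarce: the mean count had a median of 72.6, between 50.1 and 3773. By mean count, the members were 138 of 434 features from 50 to 100, 36 of 428 from 100 to 200, 16 of 550 from 200 to 500 and 14 of 662 from 500 to 5000. Counting error alone gives a median SD of 0.209 on the log2 scale, and 0.496 at the highest, at each member's mean count in single embryos. It is larger in embryos with lower counts, where it was not taken. At the limits of the rule, feature 918 (SD 1.103) and feature 1005 (SD 1.11) lay just inside the spread limit, while feature 878 (SD 1.0960) and feature 2793 (SD 1.0969) lay just outside. Feature 807 (step 1.96) and feature 1598 (step 1.98) lay just inside the step limit, and feature 3137 (step 2.00) and feature 1152 (step 2.00) just outside. A further 55 features of the same range of counts were as widely spread but had a step of 2 or more.

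On the log2 scale, low embryos were more frequent than high ones. Of the 204 members, 162 had a longer tail toward low levels and 42 toward high levels. Over members and embryos, 446 values lay at least 4-fold below the mean of their set of 4 and 310 at least 4-fold above. These are the values that chose the members, and a log scale stretches levels near 0. The same figures were not taken for other features, so no trait of the members is read from them. In 86 members at least 1 embryo had a count of 0, with 152 such values in pool1, while 7 members in pool5, 2 in pool10 and 0 in pool20 had a 0 in some sample. An empty step of at least 1 on the log2 scale (2-fold) was seen in 83 members, with the smaller side below the step in 67 of them, above it in 13 and 12 embryos on each side in 3. The other 121 members had no such step.

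The member with the largest spread, feature 2202, had 1.21 CPM in the lowest embryo, a median of 7.68 CPM and 251 CPM in the highest. 12 of the 24 embryos lay between 1.21 and 3.37 CPM, 3 between 12.0 and 33.5 CPM, and 9 between 85.9 and 251 CPM. In pools the extremes were absent: the samples held 29.9 to 160.3 CPM in pool5, 13.6 to 168 CPM in pool10 and 18.2 to 127 CPM in pool20. Feature 2611 ran from 0.444 CPM to 128 CPM in single embryos, with 60.7 CPM at the median, and from 33.6 CPM to 73.3 CPM in pool20. Its 8 lowest embryos had at most 6.48 CPM, and 15 of 24 had at least 39.2 CPM.

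Feature 1598 was listed at 0 in some embryos and reached 51.5 CPM in 1, with a median of 0.838 CPM, close to the limit of detection. Its pools split by date: pool10 samples had 12.4 to 73.4 CPM in the November batches and 0.236 to 7.27 CPM in the December batch. Feature 167 had a median of 0.642 CPM and a maximum of 62.6 CPM in single embryos. None of its 24 pool20 samples fell below 10.7 CPM, and the highest had 33.3 CPM. Feature 2372 ran from 0 to 57.5 CPM and feature 1447 from 0.222 to 167 CPM in single embryos. In pool20 the highest sample held 23.5 CPM of feature 2372 and 71.3 CPM of feature 1447.

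**Figure D1:**
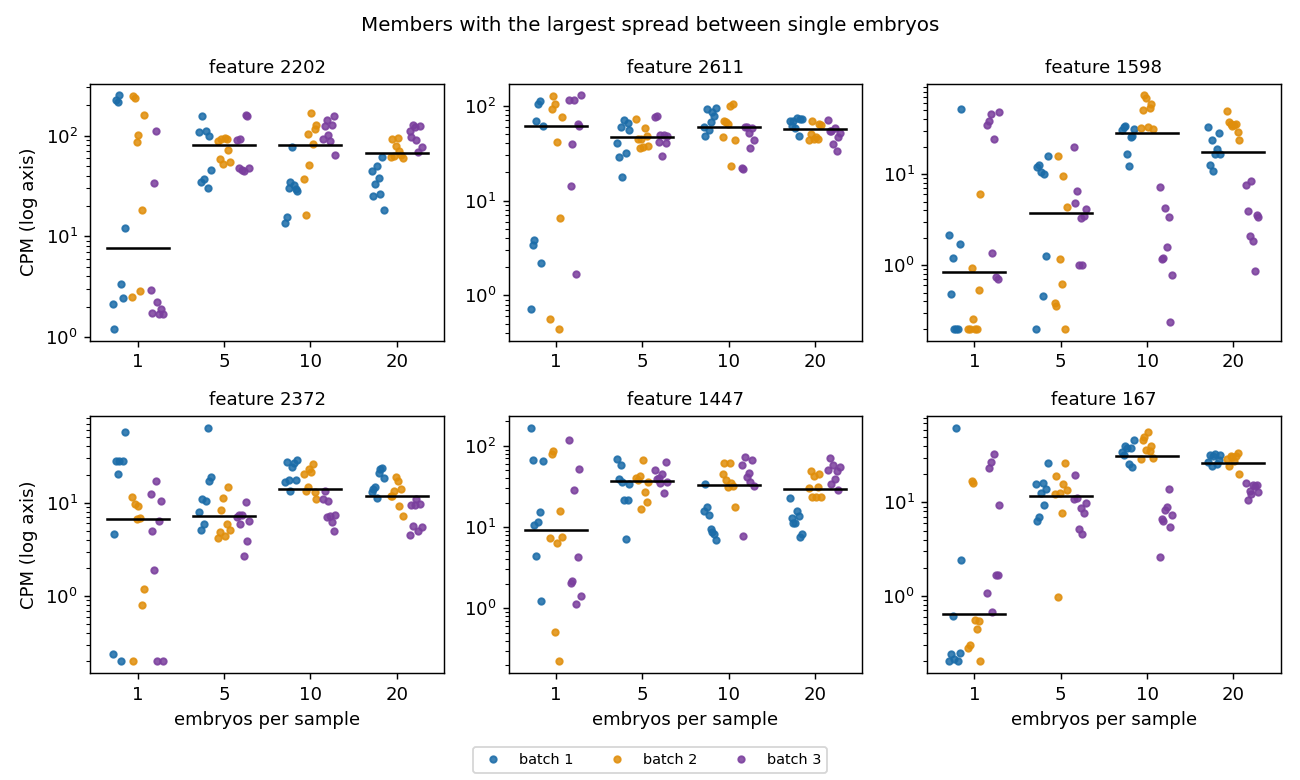
CPM on a log axis in each of 24 samples per pool size for the 6 members with the largest spread between single embryos, coloured by extraction batch, with the median as a black line and values under 0.2 CPM drawn at 0.2. Points of feature 2202 run from 1.21 to 251 CPM in single embryos and from 18.2 to 127 CPM in pools of 20.

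Counting error is smallest for the 14 members with a mean count of at least 500, which were singled out after their values were seen. Feature 1187, the most abundant with a mean count of 3773, had 81.3 CPM in the lowest embryo, 823 CPM at the median and 2104 CPM in the highest. Sorted by level, 6 embryos lay between 81.3 and 252 CPM and 18 between 634 and 2104 CPM, with 1.33 on the log2 scale between the first set and the second. Each set held embryos of all 3 batches. Pools lay between the extremes, from 336 to 1201 CPM in pool5, from 381 to 1225 CPM in pool10 and from 393 to 1113 CPM in pool20.

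Feature 2099, with a mean count of 3395, was skewed the other way. It had a median of 234 CPM in single embryos, while 5 embryos had 2220, 2413, 2424, 4147 and 4279 CPM. Those 5 embryos were samples 8, 5, 1 and 3 of batch 3 and sample 7 of batch 2. No pool5 sample, from embryos of the 12 December exposure, had more than 475 CPM. Feature 470 ran from 12.7 CPM to 2873 CPM in single embryos around a median of 516 CPM. Feature 581 ran from 71.1 CPM to 4431 CPM around a median of 393 CPM.

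In other abundant members the lowest embryo lay farther from the median than the highest on the log2 scale. Feature 1569 had 7.86 CPM in the lowest embryo, 217 CPM at the median and 354 CPM in the highest. Feature 846 ran from 7.26 CPM to 262 CPM around 145 CPM, and feature 2967 from 3.92 CPM to 241 CPM around 83.9 CPM. Every one of the 14 features had an SD above the median of other features of its count range in pool5 and in pool10, and 13 of them in pool20.

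Wide levels were spread over all embryos. The number of members at least 2-fold above the mean of the set of 4 ran from 20 to 76 per embryo with a median of 39.5, and the number at least 2-fold below ran from 15 to 68 with a median of 38.5. The 76 belonged to sample 8 of batch 2, which was also 2-fold low in 44, and 71 belonged to sample 4 of batch 3, which was 2-fold low in 17. Sample 4 of batch 3 held the highest level of 32 members, the most of any embryo. Sample 6 of batch 2 and sample 8 of batch 1 each held the lowest level of 22 members. Sample 8 of batch 1 and sample 8 of batch 2 had the smallest library totals, 3336934 and 3336312 counts, and the part of depth in these counts was not tested.

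Between pools the members varied less than between single embryos, a difference that their choice on single embryos favours, and most varied more than the median of other features. On the log2 scale the members' SD had medians of 0.57, 0.37 and 0.31 in pool5, pool10 and pool20, against 0.31, 0.23 and 0.17 for the other features with mean counts from 50 to below 5000. In pool5 198 members (97.1%) lay above the median SD of those features, in pool10 191 (93.6%) and in pool20 197 (96.6%). Within the lowest range of counts the share was smaller. Against other features with mean counts from 50 to 100, 112 of 138 members lay above the median in pool5, 97 in pool10 and 98 in pool20. In the highest range of counts the median SD of the 14 members was 0.50, 0.36 and 0.22 by increasing pool size, against 0.25, 0.18 and 0.12 for the 648 other features. The order of members by spread was kept weakly: the Spearman correlation of their SD with that in single embryos was 0.33, 0.31 and 0.28 by increasing pool size, over 204 features that share the same samples and whose range the rule had cut at its lower end.

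**Figure D2:**
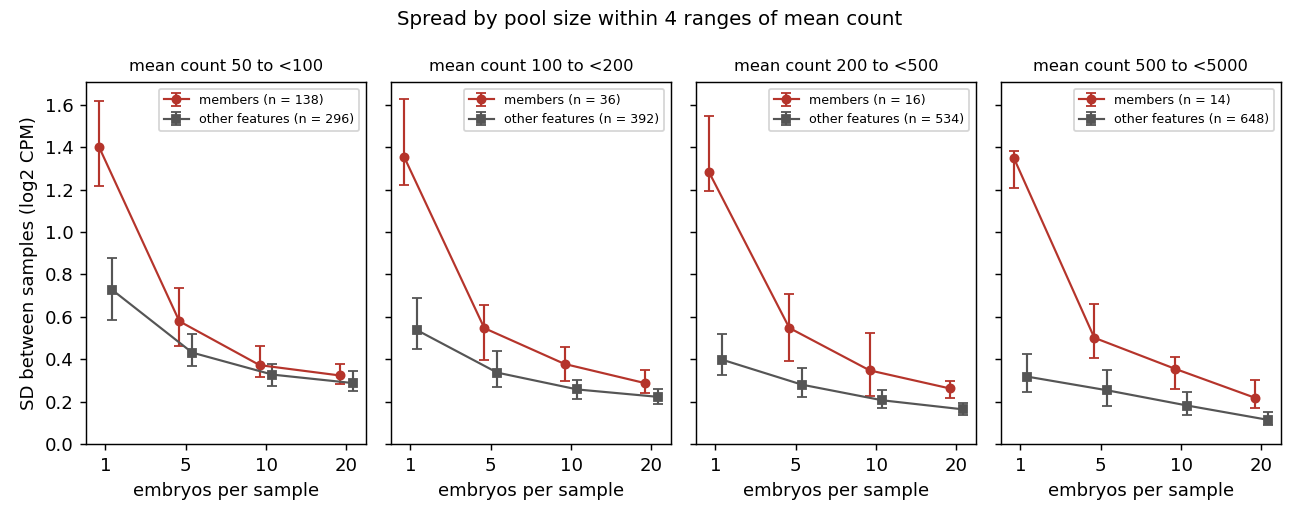
Median SD of log2 CPM between samples (points, with bars from the first to the third quartile) by embryos per sample, for members and for other features in 4 ranges of mean count. In single embryos the gap follows from the rule, and in the highest range the members' median is 0.22 in pools of 20 against 0.12 for other features.

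On a linear scale the within-set coefficient of variation of the members had a median of 74.7% over single embryos, then 39.9%, 27.5% and 23.0% over pool5, pool10 and pool20. The single-embryo values divided by the square root of the number of embryos have medians of 33.4% for 5, 23.6% for 10 and 16.7% for 20. The measured value was above that figure in 131, 132 and 152 members by increasing pool size. The figure has no error attached, since it takes the pool1 values, which the rule selected to be high, as exact.

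Spread was tested only between pools, which the rule used for the mean count alone. Absolute deviations from the mean of the set of 4 were smaller in pool20 than in pool5 in 198 of 204 members (97.1%, against 94.2% of all 2198 features), with a median of 0.243 in pool20 and 0.431 in pool5. With samples as independent units, limma called 82 members (40.2%) less variable in pool20 and 0 more variable, where 26.2% of all features were called less variable (adjusted p below 0.05, Benjamini-Hochberg). That result did not hold once samples of 1 set of 4 were allowed to vary together. With that correlation estimated limma called 1 member, feature 592, and 0.091% of all features. Feature 592 had a mean absolute deviation of 0.223 in pool20 and 0.886 in pool5. With means of sets of 4 as units limma called 0 members and 0.091% of all features. There, 77 members and 440 of all 2198 features had an unadjusted p under 0.05. With samples as units but without samples 5 to 8 of the batches numbered 1, the count was 44 (21.6%, against 13.6% of all features). Without sample 6 of pool5 batch 1 it was 69 (33.8%, against 19.7%). Pool10 against pool5 gave 14 members less variable (6.86%, against 2.27% of all features) with samples as units. Either treatment of sets of 4 gave 0, with 0.0% of all features called. An unadjusted limma p under 0.05 was found for 39 members and 180 features with the correlation, and for 36 and 154 on means. Without samples 5 to 8 of the batches numbered 1, 0 members and 0.091% of all features were called. There, 55 members and 390 features had an unadjusted p under 0.05. All pool20 samples came from a November exposure and all pool5 samples from a December one, so pool size and exposure cannot be told apart in the test of pool20. No pool10 batch shared the exposure of pool5, so the same holds for the test of pool10.

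The 3 members least variable in pool20 had mean counts of 1362, 268 and 426. Feature 1569 had an SD of 0.10 on the log2 scale in pool20 against 1.11 in single embryos, feature 1816 had 0.13 against 1.14, and feature 2435 had 0.13 against 1.55. In pool20 these features lay at 232 to 547 CPM, 52.3 to 98.6 CPM and 50.9 to 136.6 CPM over all 3 batches. Feature 1810 was the most variable in pool20, with an SD of 0.72 against 1.46 in single embryos and levels from 3.01 to 29.6 CPM. Feature 2613 had 0.62 in pool20, more than the 0.40 of pool5 or of pool10. Feature 822 had 0.60 in pool20 and 1.32 in single embryos.

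Levels were compared next, on pools and on single embryos of 1 exposure where the design allowed it. In the exposure of 13 December, with 8 samples each, edgeR's quasi-likelihood test called 14 of 200 members tested (7.0%), against 7.52% of all 2567 features tested. Of them, 2 were higher in pool10 (3.74% of all features) and 12 lower (3.78%). The other 4 members did not pass the filter on low counts. Among features with mean counts from 50 to below 5000 the shares were 8.02% called, 4.01% higher and 4.01% lower. For the members they were 7.0%, 1.0% and 6.0%. The rule used the spread of these single embryos, which enters the test, so the counts are a description. All 8 pools lay above all 8 single embryos in 1 member (1.48% of all features) and below in 2 (0.857%). The median log2 fold change was -0.20 for the members and -0.05 for all features. Sums over sets of 4 gave 11 called members, all lower in pool10, and 1.34% of all features. DESeq2 called 23 members (11.3%, against 8.44% of all features), including all 14 that edgeR called. With the replicate number as a block, which sets same-numbered samples together, edgeR called 9 members (4.5%, against 6.27% of all features). Of these, 4 were higher and 5 lower in pool10, so the lean toward lower levels was not kept in that fit.

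The errors and p-values given for features of this contrast are a description, as its counts are. Feature 966 was the largest rise. It had 239.9 to 407 CPM in pool10, with a median of 347 CPM, against 4.51 to 151 CPM in pool1, with a median of 16.3 CPM, so the groups did not overlap. The difference was 3.05 ± 0.62 (SE) on the log2 scale, with an edgeR adjusted p of 0.00528, and the call was lost with sums of sets of 4 (adjusted p = 0.149). Feature 2258, with 9.21 to 14.8 CPM in pool10 and 1.97 to 9.97 CPM in pool1, was 1.07 ± 0.31 higher on the log2 scale (edgeR adjusted p = 0.0381). With sums of sets of 4 its adjusted p was 0.105.

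Feature 2099 fell to a median of 146 CPM in pool10 (118 to 213 CPM), against 1203 CPM in pool1 (132 to 4147 CPM). Its log2 difference was -3.26 ± 0.68 (edgeR adjusted p = 0.0063). The 4 lowest single embryos of the exposure, at 132 to 186 CPM, lay among the pools, and the other 4, at 2220 CPM and more, above them all. Feature 1470 had 0.711 to 6.61 CPM in pool10 against 7.97 to 44.8 CPM in pool1, with no overlap and a log2 difference of -2.63 ± 0.41 (edgeR adjusted p = 0.000719). Feature 1598 had 0.236 to 7.27 CPM in pool10 and 0.714 to 47.9 CPM in pool1, and its adjusted p by edgeR was 0.0218, or 0.0564 with sums of sets of 4. Each pool size was 1 extraction batch in this exposure, so pool size cannot be told apart from batch.

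Pool5 was set against pool1 in the exposure of 12 December, on the sums of 3 and 2 batches. edgeR called 0 of 204 members, with 0.0% of all 3084 features called, while 20 members and 174 features had an unadjusted p under 0.05. DESeq2 called 1 member (0.49%, against 0.284% of all features). That member was feature 2021, named after its values were seen, with a median of 8.59 CPM in pool5 (2.28 to 53.1 CPM) and 0.893 CPM in pool1 (0.202 to 13.2 CPM). Its log2 difference was 2.61 ± 0.49, with an edgeR adjusted p of 0.823. The members' median log2 fold change was 0.15 and that of all features -0.02. The rule used the pool1 values of this contrast as well, so its counts are a description.

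In pool10 the members were called between dates about as often as all features, with more of them lower in December. There, the 8 samples of the December exposure were compared with the 16 of the November exposure. edgeR called 162 of 204 members (79.4%), against 78.3% of all 3045 features. In December 41 members were higher (20.1%, against 36.4% of all features) and 121 lower (59.3%, against 41.8%). For 103 members (50.5%, against 36.9% of all features) every December sample lay below every November sample, and for 6 (2.94%, against 4.83%) above. Among all features with mean counts from 50 to below 5000, 76.6% were called, 45.8% higher and 30.8% lower. The median log2 fold change was -0.62 for the members, -0.10 for all features and 0.14 for all features with mean counts from 50 to below 5000. Exposure date, extraction date, the time between exposure and extraction, the extraction batch and the numbers given to the libraries changed together and cannot be told apart. The December samples were 1 extraction batch, so the test measures a difference between batches against the spread between samples within batches. Sums of sets of 4 gave 154 called members, 39 higher and 115 lower, where 71.9% of all features were called.

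The direction went with abundance, among members and other features alike. Of the 138 members with mean counts from 50 to 100, 100 were lower in December (72.5%) and 11 higher, against 45.6% lower and 19.9% higher among the 296 other features of that range. Of the 14 members with mean counts of at least 500, 2 were lower and 10 higher (71.4%), against 17.0% lower and 65.7% higher among the 648 other features. Members were chosen on single embryos of December, and their mean count of at least 50 was taken over all samples, the November pools included. A feature scarce in December could thus pass through its November samples. The part of either choice in the direction was not tested, so no trait of the members is read from it.

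Feature 966 again showed the largest rise, to 239.9 to 407 CPM in the December pool10 batch against 10.2 to 39.2 CPM in the November batches. The log2 difference was 4.66 ± 0.18 (edgeR adjusted p = 2.75e-19). In pool20 the December extraction, from the November exposure, held 18.03 to 57.3 CPM against 10.5 to 34.4 CPM in the November extractions, and the groups overlapped. Feature 106 had 164 to 327 CPM in December and 11.8 to 148 CPM in November, 7.95-fold higher in December. Feature 470 had 599 to 1038 CPM in December against 41.4 to 439.9 CPM in November, 5.77-fold higher. The largest falls were features 2074, 2201 and 822. Their December samples held at most 4.33, 2.87 and 3.92 CPM, against at least 21.4, 18.4 and 16.6 CPM in November, and their folds were 12.3, 11.4 and 11.0. Single embryos, all of December, held at most 9.45, 10.8 and 9.36 CPM of them. Their mean count of at least 50 thus drew on the November samples, so these falls are a description.

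In pool20 all batches came from 1 exposure, so the batch extracted on 15 December differs from those of 23 and 24 November in the date of extraction, in the time between exposure and extraction and in the numbers given to its libraries, which cannot be told apart. edgeR called 146 of 204 members (71.6%, against 60.1% of all 3039 features), with 40 higher (19.6%, against 28.2%) and 106 lower (52%, against 31.9%) in the December extraction. Features with mean counts from 50 to below 5000 were called in 59.5%, higher in 34.1% and lower in 25.3%. Every December sample lay below every November one in 32 members (15.7%, against 7.77% of all features) and above in 5 (2.45%, against 1.97%). Sums of sets of 4 gave 137 called members, where 47.9% of all features were called. Of the 138 members with mean counts from 50 to 100, 9.42% were higher and 59.4% lower. The 296 other features of that range gave 13.5% and 34.8%. The mean count that chose the members included these samples, and its part in the direction was not tested.

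Feature 2012 rose to 28.6 to 57 CPM in the December extraction, against 6.37 to 16.2 CPM in the November ones, by 2.27 ± 0.13 on the log2 scale (edgeR adjusted p = 1.02e-15). Feature 2685 had 16.4 to 32.5 CPM in December and 2.58 to 10.7 CPM in November, a 4.71-fold rise. Feature 106 was 3.72-fold higher, at 117 to 229.9 CPM in December and 22.8 to 125 CPM in November. Feature 811 fell to a median of 4.73 CPM in December against 26.4 CPM in November, feature 1598 to 3.48 CPM against 28.5 CPM, and feature 592 to 18.1 CPM against 105 CPM. In features 811, 1598 and 592 no December sample reached the lowest November sample.

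**Figure D3:**
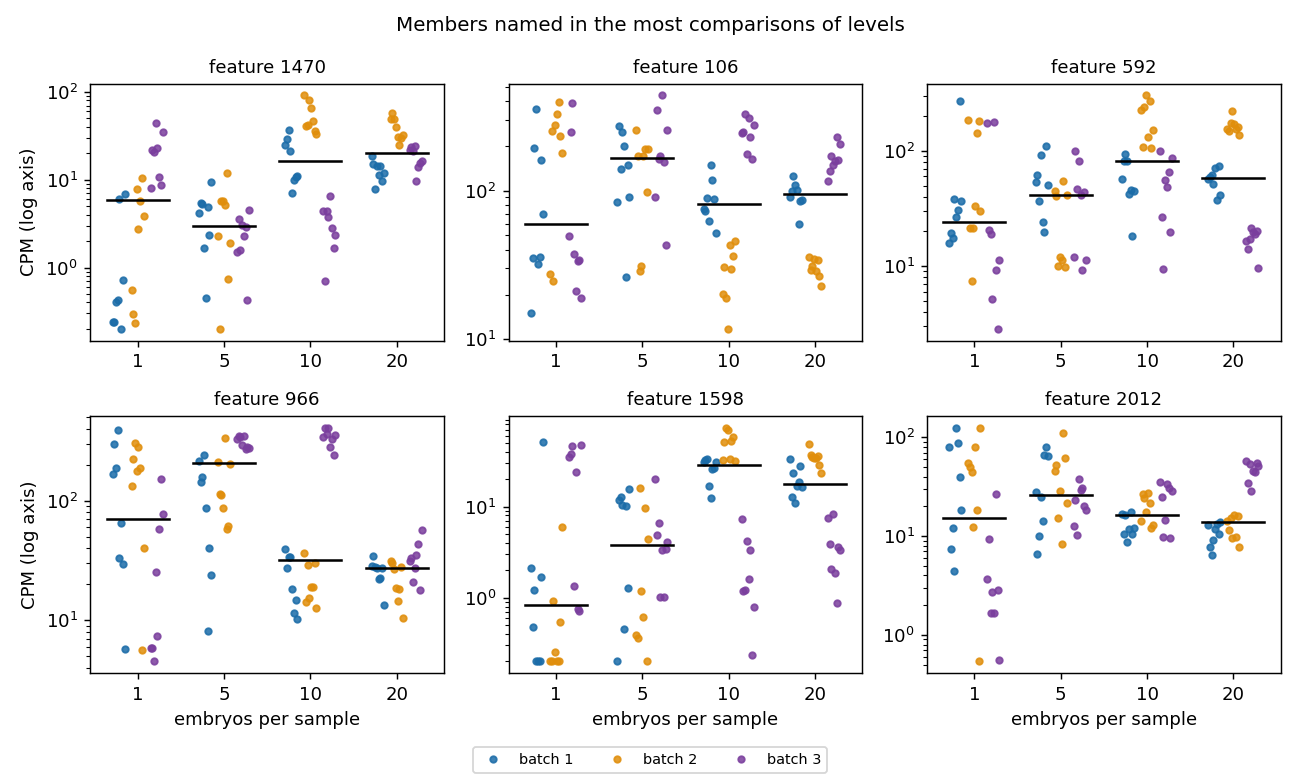
CPM on a log axis in each sample by embryos per sample, coloured by extraction batch, for the 6 members named in the most comparisons of levels, with the median as a black line and values under 0.2 CPM drawn at 0.2. Feature 966 lies at 239.9 to 407 CPM in the December batch of pools of 10 and at 10.2 to 39.2 CPM in the November batches.

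The members were also called about as often as all features between extractions on neighbouring days, with more of them higher on the later day. Batch 2 of pool10 was extracted on 24 November and batch 1 on 23 November, from embryos of 1 exposure, and the same days served for batches 2 and 1 of pool20, from another exposure. Each day is 1 batch per pool size, so day and batch cannot be told apart. In pool10 edgeR called 99 of 204 members (48.5%, against 45.4% of all features), with 79 higher on 24 November (38.7%, against 21.7%) and 20 lower (9.8%, against 23.7%). In pool20 it called 86 (42.2%, against 41.6%), with 64 higher (31.4%, against 19%) and 22 lower (10.8%, against 22.7%). Among features with mean counts from 50 to below 5000, 44.3% were called in each pool size, with 13.1% higher and 31.1% lower in pool10 and 13.7% higher and 30.6% lower in pool20. Scarce features were nearer the members. Of the 138 members with mean counts from 50 to 100, 43.5% were higher and 1.45% lower in pool10, against 24.3% and 7.43% of the 296 other features. In pool20 the shares of that range were 27.5% and 2.9% for members, against 19.3% and 6.76%. The mean count that chose the members included the November samples. Its part in the direction was not tested, so no trait of the members is read from it. The days did not overlap, with 24 November above, in 12 members in pool10 (2.46% of all features) and 11 in pool20 (2.5%), and with 24 November below in 6 (5.62%) and 10 (10.4%). Without samples 5 to 8 of batch 1, 50 members were called in pool10 (24.5%, against 23.2% of all features), 36 of them higher. Of the 50, 48 were among the 99. In pool20, 71 members were called without those samples (34.8%, against 29.8%), 53 of them higher. Sums of sets of 4 gave 75 calls in pool10 and 66 in pool20, where 28.3% and 28.0% of all features were called.

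The pool sizes share no sample in these comparisons. Of the members higher on 24 November, 44 were called in both, which is 55.7% of the pool10 calls and 68.8% of the pool20 calls, against 53.1% and 60.4% over the 3027 features tested in both. Of those lower, 18 were called in both, 90% of the pool10 calls and 81.8% of the pool20 calls, against 76% and 79.4% over all features, and 0 members and 1 feature were called in opposite directions. In 167 of 204 members (81.9%) the 2 differences had the same sign, against 83.6% of all features. A test of the difference between the pool sizes, added after the data were seen, called 0 members by edgeR (17 at an unadjusted p under 0.05) and 0.0648% of all 3086 features.

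Feature 2623 had the largest rise in both. On 24 November pool10 held 22.1 to 71.5 CPM against 1.38 to 17.9 CPM on 23 November, a log2 difference of 1.82 ± 0.31, and pool20 held 11.8 to 33.2 CPM against 3.59 to 13.4 CPM, a difference of 1.67 ± 0.27 (edgeR adjusted p = 3.37e-05 in pool10 and 5.38e-06 in pool20). Feature 592 had a median of 189 CPM on 24 November and 51.3 CPM on 23 November in pool10, and 158 CPM and 58.6 CPM in pool20, with no overlap on either. Feature 1470 had medians of 44.8 CPM on 24 November and 16.2 CPM on 23 November in pool10, and of 36 CPM and 13.1 CPM in pool20. Feature 106 moved the other way, to a median of 30.2 CPM on 24 November against 81.4 CPM on 23 November in pool10, and to 30.1 CPM against 95.2 CPM in pool20. Its falls were 3.20-fold in pool10 and 3.12-fold in pool20.

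Further falls came with little overlap. Feature 1907 had 28.5 to 65.7 CPM on 24 November in pool10, against 96.8 to 163 CPM on 23 November, and feature 208 a median of 14.3 CPM against 53.5 CPM. In pool20, feature 660 had 34.2 to 53.3 CPM on 24 November against 121 to 154 CPM on 23 November, and feature 2613 a median of 11.0 CPM against 34.4 CPM. Features 1907 and 660 did not overlap between the days.

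**Figure D4:**
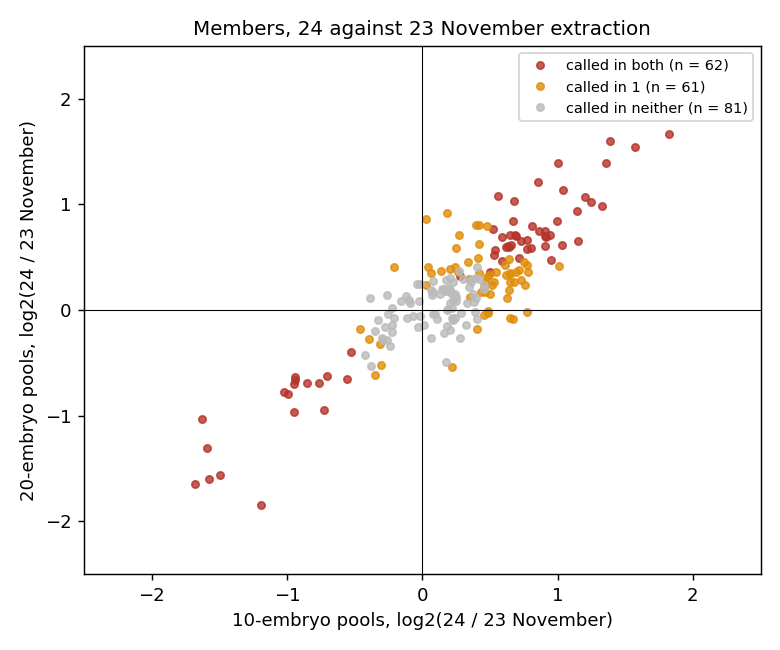
Log2 difference between samples extracted on 24 and on 23 November for the 204 members, in pools of 10 (horizontal) and of 20 embryos (vertical), coloured by where edgeR called them. 62 members were called in both, 61 in 1 and 81 in neither, and 167 lie on the same side of 0.

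Single embryos of the exposure of 13 December were set against those of 12 December. The SD of the rule had the mean of each set of 4 taken out, but its step was taken on the levels of all 24 embryos as they stood, so the rule used values of this contrast, and the counts are a description from which nothing is read. edgeR called 24 of 201 members tested (11.9%), against 8.69% of all 2692 features, with 20 higher on 13 December (9.95%, against 4.23%) and 4 lower (1.99%, against 4.46%). Features with mean counts from 50 to below 5000 gave 10.1%, 4.73% and 5.41%. Counts moved with batch 1 of the earlier exposure. Without its samples 5 to 8, 7 members were called (3.43%, against 2.33% of all features), and without the batch 0 (0.0% of all features by edgeR, with 30 members and 339 features at an unadjusted p under 0.05). Without batch 2, 14 members were higher and 9 lower (16.4% of all features called). Without only sample 8 of batch 2, 19 members were called (9.36%, against 6.05% of all features). Sums of sets of 4 gave 5 calls, where 0.232% of all features were called.

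Feature 2021 had 1.16 to 101 CPM in the later exposure, with a median of 8.19 CPM, against 0.202 to 13.2 CPM in the earlier, with a median of 0.893 CPM. Feature 305 had a median of 22.1 CPM in the later exposure against 1.19 CPM in the earlier, and feature 1470 of 21.5 CPM against 0.645 CPM. The earlier medians of features 2021 and 1470 lie within the 0.466 to 0.899 CPM that a count of 0 allows over the libraries, that of feature 305 just above, and each pair of ranges overlapped. Features 2012, 2169 and 105 had medians of 2.79, 4.94 and 37.3 CPM in the later exposure against 42.2, 19.7 and 94.8 CPM in the earlier, again with overlap.

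Whether members rose and fell together in the same embryos was asked of the single-embryo samples, and the pools then served as samples that had no part in forming groups. Clustering on correlation over the 24 pool1 samples gave 82 groups, of which 9 held at least 5 members (64 in all, the largest 17) and 26 a single member. The mean correlation within those 9 groups was 0.61 in single embryos, which formed them, and 0.053, 0.14 and 0.10 in pools of 5, 10 and 20, against 0.039, 0.085 and 0.087 for other pairs of members. The 24 samples of a pool size share batches and library preparation, and no test is given for these values.

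Low embryos stood out in the groups. In the 9 groups the lowest embryo lay 6.64-fold to 22.2-fold below the mean of its set of 4 on average, and 8 different embryos took that place. Without it the mean correlation ranged from 0.32 to 0.64, against 0.59 to 0.70 with it. In the largest group, of 17 members, features 1901, 1509 and 2153 followed the rest most closely, at correlations of 0.91, 0.85 and 0.85 in single embryos and 0.26, 0.22 and 0.12 in pool5, 0.40, 0.62 and 0.32 in pool10 and 0.27, 0.53 and 0.23 in pool20. In the next group features 2028, 1364 and 3 had 0.86, 0.81 and 0.76 in single embryos, 0.13, 0.25 and 0.18 in pool5, 0.24, 0.41 and 0.56 in pool10 and 0.035, 0.42 and 0.48 in pool20. In the group of features 1679, 966 and 1810 the correlations were 0.84, 0.81 and 0.80 in single embryos, 0.53, -0.045 and -0.013 in pool5, 0.31, 0.13 and 0.0053 in pool10 and -0.013, -0.042 and -0.26 in pool20. Features 1027, 2258 and 2199 had 0.83 each in single embryos, between -0.044 and 0.55 in pool5, between 0.070 and 0.39 in pool10 and between -0.17 and 0.33 in pool20. Features 751, 105 and 328 had 0.74, 0.73 and 0.72 in single embryos, between -0.20 and 0.36 in pool5, between 0.195 and 0.75 in pool10 and between 0.18 and 0.49 in pool20.

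Of 99 pairs of members with a correlation of at least 0.7 in single embryos, 3 had at least 0.5 at every pool size, and these were picked after their values were seen. Features 800 and 2549 had correlations of 0.88 for single embryos and of 0.84, 0.84 and 0.79 for pools of 5, 10 and 20. Leaving out the 2 samples farthest from the median of feature 800 gave 0.81, 0.83, 0.84 and 0.78. Features 112 and 2611 had 0.86, 0.83, 0.84 and 0.75, and 0.78, 0.79, 0.73 and 0.80 without the 2 samples farthest from the median of feature 112. Features 305 and 3156 had 0.76, 0.62, 0.59 and 0.81. Without the 2 samples farthest from the median of feature 305 they had 0.66, 0.63, 0.46 and 0.61, so in pool10 this pair was above 0.5 only with those samples. Over the 99 pairs the mean was 0.14, 0.15 and 0.12 in pools of 5, 10 and 20, against 0.45, 0.35 and 0.23 over the 9036 pairs of all features with mean counts from 50 to below 5000 that had at least 0.7 in single embryos. These sets of pairs were not matched for mean count, so no trait of the members is read from the difference.

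The levels of these pairs differed in kind. Over single embryos feature 800 ran from 8.31 to 653 CPM and feature 2549 from 8.72 to 643 CPM, and the same 2 embryos were lowest in both. In pool10 feature 800 held 335 to 408 CPM in the December batch against 88.02 to 289.8 CPM in the November ones, and feature 2549 held 181 to 271 CPM against 41.8 to 139 CPM. Feature 112 ran from 0.56 to 67.2 CPM in single embryos and from 19.3 to 61.1 CPM in pool20. Features 305 and 3156 were low in December: pool10 held 5.90 to 11.2 CPM of feature 305 in that batch against 47.7 to 289 CPM in November, and 5.01 to 11.2 CPM of feature 3156 against 45.02 to 253 CPM.

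**Figure D5:**
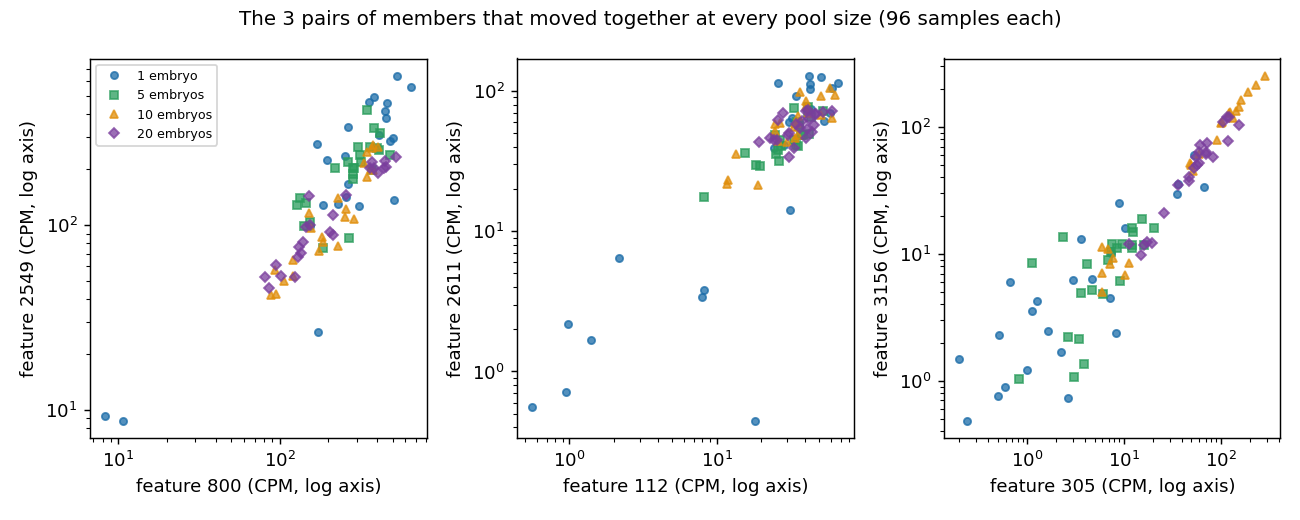
CPM of 1 member of a pair against that of the other in 96 samples, on log axes, with a symbol for each number of embryos per sample and values under 0.2 CPM drawn at 0.2. Feature 112 runs from 0.56 to 67.2 CPM in single embryos, mostly along with feature 2611, and from 19.3 to 61.1 CPM in pools of 20.

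Position in the table was also looked at. 14 pairs of members lay in neighbouring rows, against 13.0 for a share of 6.41% spread evenly over the table, and their median correlation in single embryos was -0.015. The highest was 0.69, between features 1781 and 1782, which had 0.19 in pool5 and 0.56 in pool20. The lowest was -0.55, between features 2752 and 2753, which had 0.61 in pool5 and 0.057 in pool20. No 2 members held identical counts.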

How the data were processed

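Raw counts of 3183 features in 96 samples, as deposited by the authors and not normalized, were the input, and 0 columns of samples were left out. The submitters' processing notes name STAR (2.7.10a) and RSEM (1.3.3), besides DESeq2 (1.31.15) and, for read handling, fastp (0.23.2) with bcl2fastq (2.20). How counts were made, and on which genome build, is not stated there. Members, groups and pairs were chosen with earlier results of these data known. Spread was taken on log2 CPM with a prior count of 0.5, centred on each set of 4 samples. Levels were tested over all features by quasi-likelihood in edgeR (4.0.16, under R 4.3.3), with low counts filtered, TMM factors and Benjamini-Hochberg adjustment at 0.05. Limma (3.58.1) tested absolute deviations where the mean count reached 50. On simulated data that test called more unchanged features than its threshold allows unless the set of 4 was taken into account, so both forms are given. DESeq2 (1.42.0) served as an alternative. Features were named by rule: the 6 widest, the 3 closest followers in each of the 5 largest groups, the 3 largest called rises and falls of each comparison, the 3 most and 3 least variable in pool20, those nearest the limits of the rule, and the extreme neighbouring pairs. Abundant members, the 3 kept pairs, and feature 592 as a remaining call, were singled out after their values were seen. Reads carry no molecular identifiers, so limits cover counting error only.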

Additional observations from a re-analysis of the deposited data

Results flagged for a closer look

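In batches of 8 samples, 2 samples lay far from the others of their batch. Feature 2258 had 14.8 CPM in sample 4 of pool10 batch 3, where the other 7 samples held 9.21 to 11.4 CPM. Feature 2012 had 0.54 CPM in sample 7 of pool1 batch 2, where the others held 12.3 to 125 CPM. Of 88 batches looked at over the named features, chance alone would pick out about 1 in 20.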

How the results depend on the processing

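Of the results on named features, 226 of 247 settings kept direction and side of the threshold, 21 lost the call and 0 reversed, and 25 of 35 results kept their call in every setting. For pool10 against pool1, DESeq2 called 23 members (8.44% of all features) and a fit with the replicate number as a block called 9 (6.27%), against 14 (7.52%). With the block 4 were higher and 5 lower, against 2 and 12, and 6 of the 14 were kept. For pool5 against pool1, on sums of batches, DESeq2 called 1 (0.284% of all features). There the block was the batch number, and that fit called 22 (10.8%, against 4.7% of all features), 17 higher and 5 lower in pool5. Leaving out 1 batch at a time gave 0, with 0.0% of all features called. Pool10 on 24 against 23 November gave 50 without samples 5 to 8 of batch 1 (23.2% of all features). Pool1 on 13 against 12 December gave 13 with the block (7.62% of all features) and 7 without samples 5 to 8 of batch 1 (2.33%). It gave 0 without batch 1 (0.0%) and 5 on sums of sets of 4 (0.232%). The spread of pool20 against pool5 gave 44 without samples 5 to 8 of the batches numbered 1 (13.6% of all features). It gave 1 with the correlation within sets of 4 estimated (0.091%) and 0 on means of sets of 4 (0.091%). That of pool10 against pool5 gave 22 with TMM scaling (3.82% of all features) and 9 with the block (1.05%). With a mean count of at least 1 it gave 25 (8.01%). It gave 0 without samples 5 to 8 (0.091% of all features). With the correlation, on means of sets of 4 and with pool10 batch 3 alone it gave 0 (0.0% each). Centred on the batch mean, the members' median SD was 0.428 in pool10 and 0.353 in pool20. The cause of these shifts was not tested. Where samples were left out, the number of samples was smaller as well, and its part was not tested. Correlations of same-numbered samples were not above 0.1 for every pair: they ran from -0.0438 to 0.113 for pool10 against pool1, where 5 of 8 correlated best with their own number, from -0.236 to 0.535 (median 0.101) for pool10 against pool5, and from -0.267 to 0.536 (median 0.159) for pool10 on 24 against 23 November. The labels give no shared source, so samples were not treated as pairs, and a partial link between numbers was not tested further. Applying the rule without pool1 batch 1, 2 or 3 gave 207, 184 and 238 members, sharing 145, 143 and 177 with the 204. The groups depended on the method: Spearman correlation kept 5.06% of grouped pairs, complete linkage 17.9% and leaving out batch 2 13.6%.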
